A study of Homo sapiens with 12 samples.

Results

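Vertebrate cells carry a small set of proteins that recognise RNA with foreign features, and 10 genes of that set were described here by their gene symbol: the sensors DDX58 (RIG-I), IFIH1 (MDA5), DHX58 (LGP2), TLR3, EIF2AK2 (PKR) and ZBP1, the adaptors MAVS and TICAM1 (TRIF), the kinase TBK1, and the RNA editor ADAR. They were chosen by name as genes relevant to a cell's innate response to transfected siRNA, with earlier results of these data known. Each of the 10 was among the 36137 gene symbols of the count table, and 9 passed the filter on low counts, which kept 18468 symbols. ZBP1 did not pass it.

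The cells were LNCaP, an established prostate cancer line, taken from a lymph node, that responds to androgen, and all 12 libraries came from this 1 line. Every culture was transfected with siRNA for 48 h and serum starved for 12 h, so no group was free of siRNA. The 4 groups of 3 libraries were non-specific siRNA with ethanol vehicle, non-specific siRNA with 2.5 nM dihydrotestosterone (DHT, the main androgen of the prostate) for 24 h, PXN siRNA with vehicle, and PXN siRNA with DHT. PXN encodes paxillin, a scaffold protein of focal adhesions. The PXN siRNA groups differ from the others both in the siRNA molecules delivered and in the gene lowered, and these cannot be told apart in this design.

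RIG-I and MDA5 are helicases of the cytosol that bind double-stranded RNA, RIG-I at the ends of short molecules and MDA5 along longer ones, and both signal through MAVS on the outer mitochondrial membrane. TLR3 binds double-stranded RNA in endosomes and signals through TRIF. Both routes reach the kinase TBK1, which phosphorylates the transcription factor IRF3 and so switches on type I interferon genes. PKR stops translation by phosphorylating eIF2 alpha when it binds double-stranded RNA, and ADAR edits adenosine to inosine in such RNA and keeps the cell's own transcripts from being sensed. DDX58, IFIH1, DHX58, TLR3, EIF2AK2, ZBP1 and ADAR are themselves known as interferon-induced genes.

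Because interferon induction acts through promoter elements, promoters of the members were read from RefSeq (GRCh38.p14), where 8 of 10 members matched: DHX58 and ZBP1 did not. The windows ran from 250 bases before to 50 bases after the start of the gene and were searched on both strands for GAAANNGAA, the core of the interferon-stimulated response element, and TTCNNNGAA, the gamma-activated sequence bound by STAT factors. The first was in 8.29% and the second in 7.88% of 27305 promoters of the same length. IFIH1 held 4 matches of the first motif, 3 of them overlapping one another at 164, 158 and 152 bases before the start and the other at 21 bases before it. TLR3 held 1 match of the first motif, which began 3 bases before the start and ran across it, and 2 of the second, at 178 and 50 bases before the start. EIF2AK2 held 1 match of the first motif, which began 6 bases before the RefSeq start and ran across it. DDX58, MAVS, TICAM1, TBK1 and ADAR held neither motif in this window. Every window and distance here is counted from the RefSeq start. The gene positions given below come from GENCODE, whose starts can differ, as for EIF2AK2, DDX58 and TBK1. The minus-strand EIF2AK2 gene reaches 37157065 there, so its match lies inside that gene. A match is a string of letters and not a measured binding site, and its absence says only that the letters are not in the window. The 210 bases from 200 before to 10 after the start, written along the gene's own strand with motif matches in capitals, are shown for the 3 sensors with the largest differences between the siRNAs and for EIF2AK2, whose difference was in the other direction. They lie at chr9:32526187-32526396 (minus strand) for DDX58, chr2:162318675-162318884 (minus strand) for IFIH1, chr4:186068956-186069165 (plus strand) for TLR3 and chr2:37156971-37157180 (minus strand) for EIF2AK2.
DDX58: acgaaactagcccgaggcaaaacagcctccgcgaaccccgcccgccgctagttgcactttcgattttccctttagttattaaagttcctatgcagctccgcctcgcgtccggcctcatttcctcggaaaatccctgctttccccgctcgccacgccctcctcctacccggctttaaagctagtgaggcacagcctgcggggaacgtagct
IFIH1: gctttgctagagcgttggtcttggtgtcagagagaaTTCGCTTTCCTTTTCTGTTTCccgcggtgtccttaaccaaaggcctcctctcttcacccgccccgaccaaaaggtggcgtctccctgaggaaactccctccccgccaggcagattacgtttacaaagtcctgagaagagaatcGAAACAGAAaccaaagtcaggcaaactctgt
TLR3: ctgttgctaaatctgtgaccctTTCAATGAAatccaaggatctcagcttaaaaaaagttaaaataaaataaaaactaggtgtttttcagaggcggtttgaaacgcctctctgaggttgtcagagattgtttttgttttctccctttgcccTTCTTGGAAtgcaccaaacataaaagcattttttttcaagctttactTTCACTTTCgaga
EIF2AK2: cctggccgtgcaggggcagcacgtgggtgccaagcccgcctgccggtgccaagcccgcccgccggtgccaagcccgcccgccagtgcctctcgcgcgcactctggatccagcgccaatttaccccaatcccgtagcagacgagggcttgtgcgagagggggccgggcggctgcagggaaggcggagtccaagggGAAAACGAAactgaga

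Library totals were 34321000 to 38633456 counts, and 1 CPM (a count scaled to library size by TMM) stood for 33.65 to 38.25 counts. PXN itself checked the labels: its level was 108 ± 2.93 CPM with non-specific siRNA and 17.1 ± 3.58 CPM with PXN siRNA under vehicle, and 106 ± 7.03 against 18.2 ± 1.70 CPM under DHT (mean ± SD, n = 3 each). The defining markers of LNCaP were present in all libraries. Of 16 markers of leukocytes, stroma, endothelium and basal epithelium, 12 were in the table and 6 passed the filter. None of these 12 was at 0 throughout, but PTPRC, LYZ, PECAM1 and KRT5 had at most 3 counts in a library and TP63 at most 1. The labels do not say whether the libraries of a group came from separate cultures, and the p-values here therefore reflect only how much these libraries vary, which may be technical. A call below is an adjusted p under 0.05 by edgeR's quasi-likelihood test with Benjamini-Hochberg adjustment over the 18468 genes, fold changes are on the log2 scale with their SE, and levels are in CPM.

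The members spanned a wide range of abundance. Scaled to exon length, and averaged over the 12 libraries, ADAR was highest at 47.6 CPM per kb, followed by MAVS at 25.4, TBK1 at 14.6, TICAM1 at 9.55, EIF2AK2 at 6.64, DDX58 at 3.71, IFIH1 at 2.96, TLR3 at 1.03 and DHX58 at 0.818 CPM per kb. On this length-scaled level the signal transducers and the editor thus stood above the sensors. Without length scaling EIF2AK2 (median 69.7 CPM) was level with TBK1 (69.5 CPM) and above TICAM1 (25.8 CPM). With non-specific siRNA and vehicle, the length-scaled libraries of DDX58 and IFIH1 overlapped, as did those of TLR3 and DHX58. The other neighbours in the length-scaled order did not. With PXN siRNA and vehicle DDX58 no longer overlapped IFIH1. ZBP1, a sensor of left-handed RNA and DNA helices that starts necroptosis, gave 3 counts in all 12 libraries, 1 each in 1 library of non-specific siRNA with DHT, of PXN siRNA with vehicle and of PXN siRNA with DHT. A count of 0 allows up to 3 counts, or 0.0784 to 0.0892 CPM in these libraries, for counting error alone, so a difference in ZBP1 was not detectable at this depth.

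**Figure D1:**
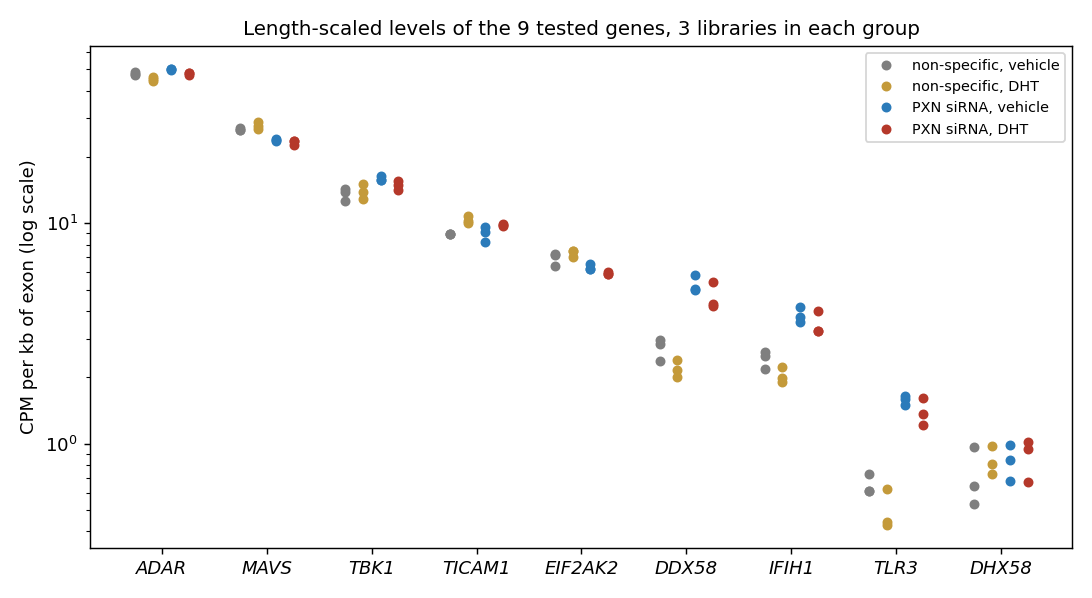
Length-scaled level (CPM per kb of exon, log axis) of the 9 tested genes, one point per library and one colour per group of 3 libraries. ADAR and MAVS are the most abundant, and DDX58, IFIH1 and TLR3 are the genes whose PXN siRNA points stand clearly above the non-specific siRNA points.

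The first comparison asked how PXN siRNA and non-specific siRNA differed in cells given vehicle. Sensor transcripts for RIG-I, MDA5 and TLR3 were 1.58 to 2.43 times as high with PXN siRNA, TBK1 was slightly higher and MAVS slightly lower. Of the 9 tested members 4 rose and 1 fell. Among all tested genes 23.9% were called higher and 26.3% lower, so calls in both directions were common in this contrast, and the members' shares were 44.4% and 11.1%. The median over the 9 members was 0.22, against 0.02 over all tested genes. Below, the share of all tested genes with groups apart is not given, and ADAR had groups apart without a call. In bulk libraries fewer cells of a type and less RNA per cell cannot be told apart.

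TLR3, on chromosome 4 (186069152 to 186088069, plus strand), had the largest difference of the members. Its level was 4.93, 4.11 and 4.09 CPM with non-specific siRNA and 11.1, 10.1 and 10.8 CPM with PXN siRNA under vehicle. Every PXN siRNA library lay above every non-specific siRNA library. The fold change was 1.28 ± 0.15 (edgeR adjusted p = 6.64e-06), or 2.43-fold.

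DDX58, the gene of RIG-I, lies on chromosome 9 (32455705 to 32526324, minus strand). Its level was 12.9, 10.4 and 12.3 CPM with non-specific siRNA and 21.6, 22.0 and 25.3 CPM with PXN siRNA under vehicle. The groups did not overlap and the means differed 1.94-fold (log2 0.95 ± 0.12, edgeR adjusted p = 1.10e-05).

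IFIH1, the gene of MDA5, lies on chromosome 2 (162267079 to 162318703, minus strand). It measured 12.8, 11.1 and 13.4 CPM with non-specific siRNA and 18.3, 19.2 and 21.4 CPM with PXN siRNA under vehicle. Its rise was smaller than that of DDX58 in estimate, at 1.58-fold (log2 0.66 ± 0.11, edgeR adjusted p = 0.000135), and the groups were again apart. Tested against a fold change of 1.5 instead of no change, IFIH1 was not called (adjusted p = 0.445), while TLR3 and DDX58 were. Across its other alternatives IFIH1 kept its call.

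DHX58, on chromosome 17 (42101404 to 42112733, minus strand), encodes LGP2, the third helicase of the family, which has no signalling domain of its own and modulates RIG-I and MDA5. It did not pass the test. Its level was 2.48, 3.73 and 2.04 CPM with non-specific siRNA and 2.62, 3.80 and 3.24 CPM with PXN siRNA under vehicle, and the groups overlapped. The fold change was 0.22 ± 0.23 (95% interval -0.27 to 0.71, edgeR adjusted p = 0.442), an interval that leaves out the 0.95 estimated for DDX58 but does not exclude a rise like that of IFIH1. Leaving out single libraries moved the estimate between 0.04 and 0.49, with no call. In each of the 4 groups replicate 2 had the highest level, from 3.73 to 3.91 CPM.

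EIF2AK2, the gene of PKR, lies on chromosome 2 (37099210 to 37157065, minus strand). It measured 77.2, 68.6 and 77.7 CPM with non-specific siRNA and 67.0, 70.7 and 66.7 CPM with PXN siRNA under vehicle. Replicate 2 of the non-specific siRNA libraries lay within the PXN siRNA range, and the difference of -0.13 ± 0.06 was not called (edgeR adjusted p = 0.0856). Without that library it was -0.21 and was called (adjusted p = 0.0074, with a range of 0.0074 to 1 over its 22 alternatives). In GENCODE 29 GPATCH11 lies opposite 35 exonic bases of EIF2AK2 and a processed pseudogene opposite 401, and whether counting used strand is unknown from the sources.

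Downstream of the sensors, MAVS on chromosome 20 (3846799 to 3876123, plus strand) measured 317, 312 and 313 CPM with non-specific siRNA and 284, 280.3 and 278 CPM with PXN siRNA under vehicle. The fall was small but the groups were apart (log2 -0.16 ± 0.05, edgeR adjusted p = 0.0188). The call was lost under upper quartile scaling (-0.06, adjusted p = 0.324), without the low-count filter (-0.18, adjusted p = 0.057) and with only these 2 groups in the fit (-0.15, adjusted p = 0.0801). The adjusted p ranged from 0.0076 to 1 over its 22 alternatives.

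TICAM1, on chromosome 19 (4815932 to 4831704, minus strand), is the adaptor of TLR3. It measured 23.9, 24.0 and 24.0 CPM with non-specific siRNA and 25.6, 22.1 and 24.6 CPM with PXN siRNA under vehicle. The difference was 0.01 ± 0.07 (95% interval -0.14 to 0.15, edgeR adjusted p = 0.955), so the interval for the TRIF adaptor lay well below the rise estimated for its receptor TLR3.

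TBK1, on chromosome 12 (64451880 to 64502108, plus strand), measured 66.0, 60.2 and 68.1 CPM with non-specific siRNA and 75.2, 74.9 and 78.0 CPM with PXN siRNA under vehicle. It rose by 0.23 ± 0.07 (edgeR adjusted p = 0.0107), with no overlap between the groups. The call was lost without replicate 2 of non-specific siRNA with vehicle (0.16, adjusted p = 0.0786) and without replicate 3 of PXN siRNA with vehicle (0.19, adjusted p = 0.0651), within a range of 0.000834 to 1 over its 22 alternatives. In GENCODE 29 an antisense gene lies opposite 702 bases, or 14.7%, of the exons of TBK1.

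ADAR, on chromosome 1 (154582057 to 154628013, minus strand), was the most abundant member. It measured 460.3, 455 and 470.2 CPM with non-specific siRNA and 484, 487 and 481 CPM with PXN siRNA under vehicle. The groups did not overlap, but the difference of 0.07 ± 0.05 was not called (edgeR adjusted p = 0.297). Under upper quartile scaling it was 0.17 and was called (adjusted p = 0.012, with a range of 0.012 to 1 over its 22 alternatives).

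**Figure D2:**
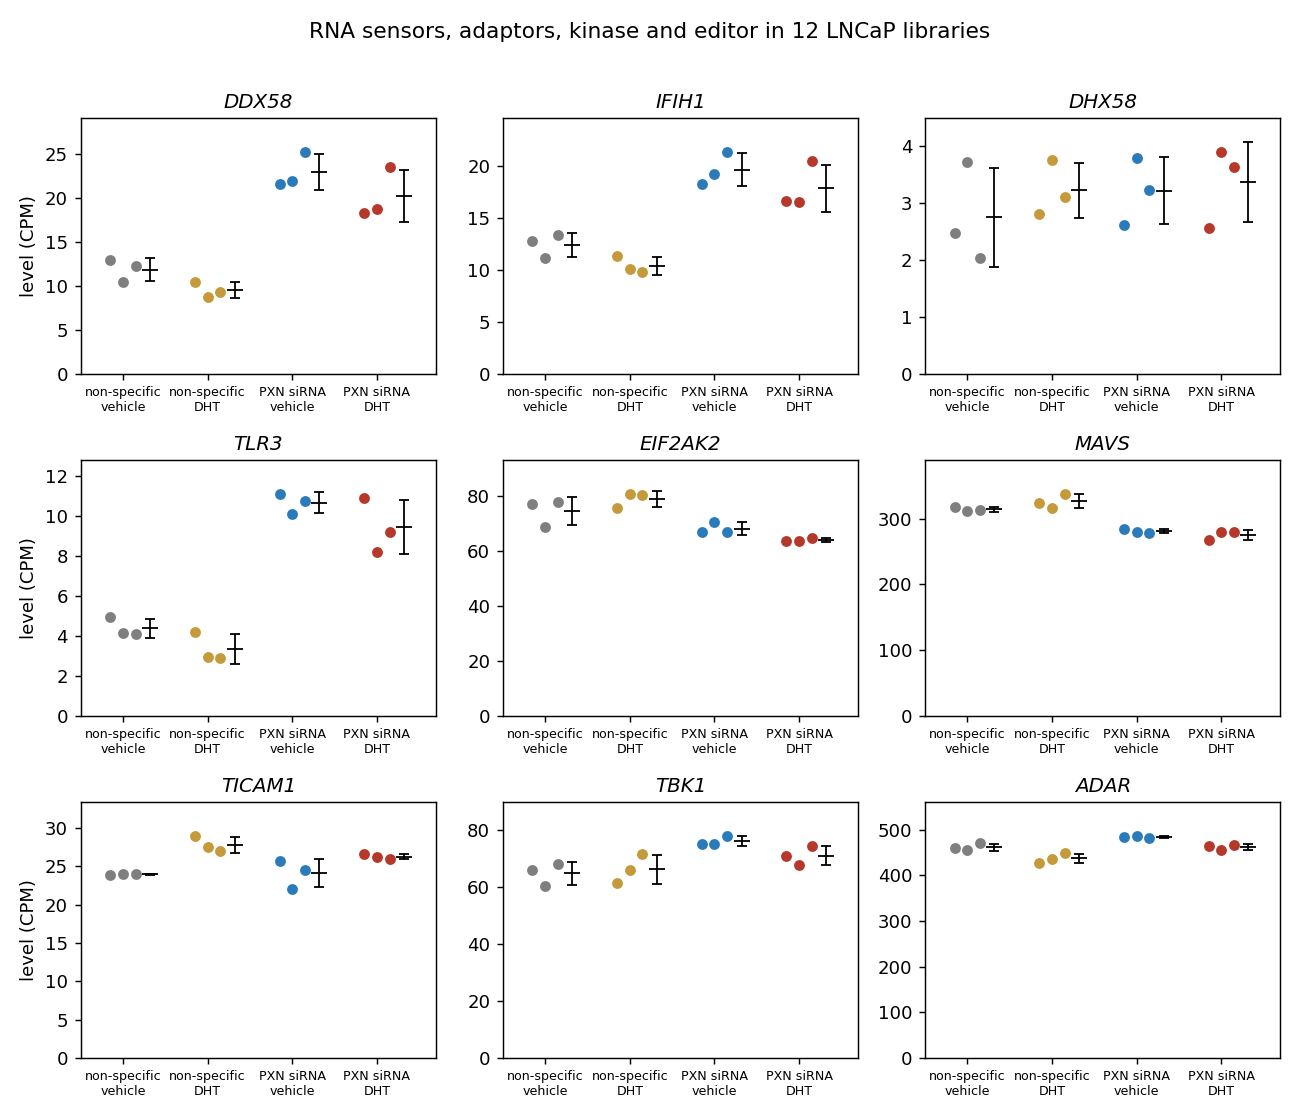
Level (CPM, axes from 0) of the 9 tested genes in every library, with points in order of replicate number within each of the 4 groups and the mean ± SD of 3 libraries beside them. TLR3, DDX58 and IFIH1 separate by siRNA, DHX58 does not, and the remaining genes differ by small fractions of their level.

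Under DHT the same comparison again showed TLR3, DDX58 and IFIH1 higher with PXN siRNA, and EIF2AK2 and MAVS lower. Of the 9 tested members 3 rose and 2 fell, 33.3% and 22.2%, where 25% of all tested genes were called higher and 26.7% lower. The members' median was 0.08, against 0.03 over all tested genes.

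TLR3 measured 4.20, 2.96 and 2.88 CPM with non-specific siRNA and 10.9, 8.20 and 9.17 CPM with PXN siRNA under DHT, a rise of 1.49 ± 0.15 (edgeR adjusted p = 2.18e-06) or 2.81-fold. DDX58 measured 10.5, 8.77 and 9.36 CPM against 18.3, 18.8 and 23.6 CPM, a rise of 1.08 ± 0.12 (edgeR adjusted p = 3.87e-06). IFIH1 measured 11.4, 10.1 and 9.78 CPM against 16.7, 16.5 and 20.5 CPM, a rise of 0.78 ± 0.11 (edgeR adjusted p = 3.41e-05). For all 3 sensors the lowest PXN siRNA library stood above the highest non-specific siRNA library. Groups apart were not particular to called genes, since ADAR and TICAM1 had them under DHT without a call. Replicate 3 was the highest PXN siRNA library for DDX58 and IFIH1 but not for TLR3. Tested against a fold change of 1.5, IFIH1 was not called under DHT either (adjusted p = 0.0907).

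EIF2AK2 measured 75.5, 80.8 and 80.5 CPM with non-specific siRNA and 63.6, 63.6 and 64.7 CPM with PXN siRNA under DHT. It fell by 0.30 (SE 0.06, edgeR adjusted p = 0.000639) with no overlap between the groups. MAVS measured 324, 317 and 338 CPM against 267, 279 and 279.6 CPM. It fell by 0.25 (SE 0.05, edgeR adjusted p = 0.0012), and its groups did not overlap.

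The remaining 4 tested members did not pass the test under DHT. DHX58 measured 2.81, 3.76 and 3.12 CPM against 2.57, 3.91 and 3.65 CPM with overlapping groups (0.06 ± 0.23, 95% interval -0.42 to 0.54, edgeR adjusted p = 0.839). TICAM1 measured 29, 27.5 and 27.0 CPM against 26.7, 26.3 and 25.9 CPM, without overlap (-0.08 ± 0.07, edgeR adjusted p = 0.316). TBK1 measured 61.3, 65.8 and 71.6 CPM against 71.0, 67.5 and 74.4 CPM, which overlapped (0.10 ± 0.07, edgeR adjusted p = 0.237). ADAR measured 428, 436 and 449 CPM against 464, 455 and 467 CPM, with the groups just apart (0.08 ± 0.05, edgeR adjusted p = 0.226). With upper quartile scaling TBK1 (0.20, adjusted p = 0.0189) and ADAR (0.18, adjusted p = 0.00736) were called, and the difference in TICAM1 turned to 0.02 without a call. Over the 22 alternatives these were the lowest adjusted p for TBK1 and ADAR, and the highest were 1.

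These small differences depended on where 0 was set. Upper quartile scaling moved the median of all tested genes to 0.12 under vehicle and 0.13 under DHT, from 0.02 and 0.03 with TMM, and the share of called genes that were higher from 47.7% to 60.2% and from 48.3% to 60.7%. A change of scaling shifts all genes by about the same amount, so changes are also given relative to the median, with TMM: -0.18 for MAVS, 0.21 for TBK1 and 0.05 for ADAR under vehicle, and -0.27 for MAVS, -0.33 for EIF2AK2 and 0.05 for ADAR under DHT. TLR3, DDX58 and IFIH1 stood 1.26, 0.94 and 0.64 above the median under vehicle and 1.46, 1.06 and 0.75 above it under DHT.

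**Figure D3:**
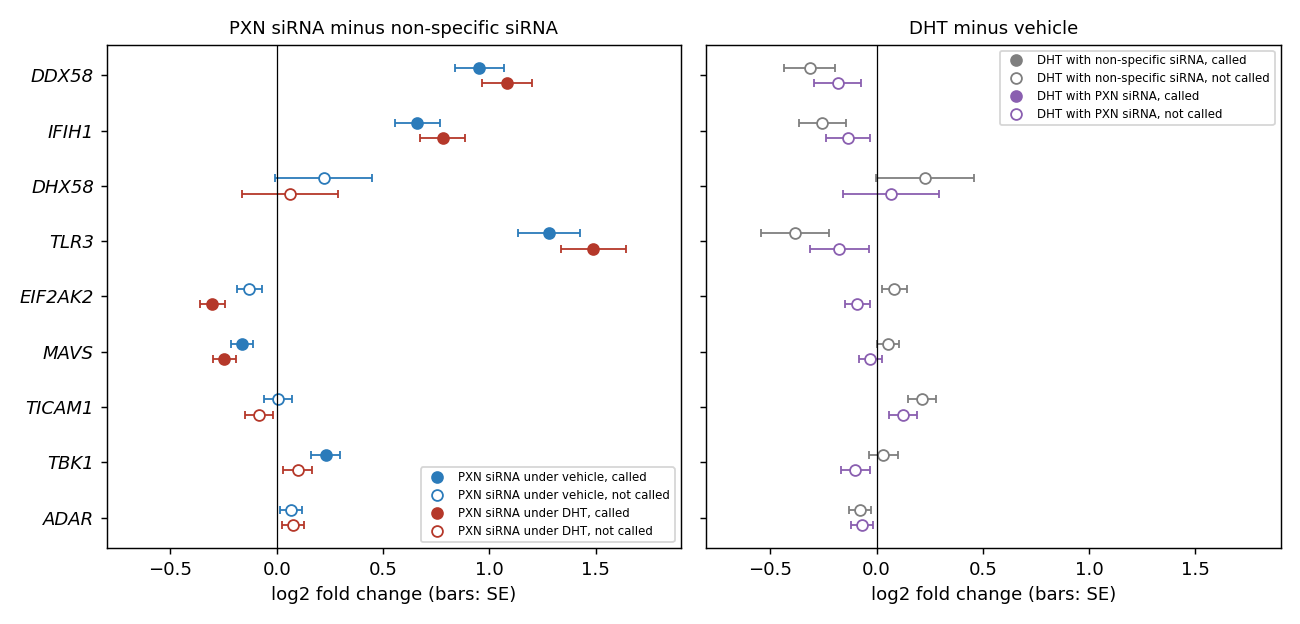
Log2 fold change (points) with SE (bars) of the 9 tested genes for PXN siRNA against non-specific siRNA (left) and DHT against vehicle (right), filled where the adjusted p was under 0.05. TLR3, DDX58 and IFIH1 lie at 0.66 to 1.49 on the left, and no point on the right is filled in this fit without a replicate block.

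DHT was compared with vehicle within each siRNA. With non-specific siRNA 0 of 9 members were called in the main fit, which has no replicate block, against 4.87% of all tested genes. edgeR gave 4 of 9 members an unadjusted p under 0.05, against 3066 of the 18468 tested genes. DESeq2 and limma-voom each called 0 members. TICAM1 was 0.21 ± 0.07 higher with DHT, with the DHT libraries at 27.0 to 29 CPM above the vehicle libraries at 23.9 to 24.0 CPM, but its edgeR adjusted p was 0.0927. DDX58, IFIH1 and TLR3 were lower in estimate, at -0.31 ± 0.12, -0.25 ± 0.11 and -0.38 ± 0.16 (edgeR adjusted p = 0.185, 0.252 and 0.228), with overlapping groups. With the replicate number as a block 3 members were called: TICAM1 at 0.21 (adjusted p = 0.0277), TLR3 at -0.39 (adjusted p = 0.038) and DDX58 at -0.31 (adjusted p = 0.0461). Without replicate 1 of non-specific siRNA with DHT TLR3 was also called (-0.58, adjusted p = 0.0355). Over all 22 alternatives the adjusted p ran from 0.0277 to 1 for TICAM1, from 0.0355 to 1 for TLR3 and from 0.0461 to 1 for DDX58.

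With PXN siRNA DHT likewise gave 0 called members, where 0.184% of all tested genes were called. No member had an unadjusted p under 0.05, where 1378 of the 18468 tested genes had one, and DESeq2 and limma-voom called 0 members. The estimates ran from -0.18 for DDX58 and TLR3 to 0.13 for TICAM1. DDX58 had a 95% interval of -0.42 to 0.06 and TLR3 one of -0.47 to 0.12. The contrasts of DHT and of PXN siRNA share the non-specific vehicle or the PXN siRNA libraries, so their values are not independent.

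The interaction tested whether the difference between the siRNAs depended on DHT. It called 0 members and 0% of all tested genes, and DESeq2 and limma-voom also called 0 members. An unadjusted p under 0.05 was given to 0 members and to 778 of the 18468 tested genes. The nearest was EIF2AK2 at -0.17 ± 0.08 (adjusted p = 1 by edgeR's quasi-likelihood test), so its call under DHT and not under vehicle is not shown to be a difference between the treatments. The same holds for TBK1, called under vehicle only (interaction -0.13 ± 0.10, adjusted p = 1 by the same test). For TLR3 the interaction was 0.21 ± 0.21 (95% interval -0.24 to 0.66) and for DDX58 0.13 ± 0.16 (95% interval -0.22 to 0.48). Leaving out single libraries moved these from 0.09 to 0.40 and from 0.0045 to 0.22, with no call.

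Across the 12 libraries, which share the 4 groups, DDX58 and IFIH1 followed each other most closely (Pearson r = 0.994 of log2(CPM + 1)), and IFIH1 was the closest of 14026 genes to DDX58. BIRC3 (0.985), ST3GAL5 (0.985), CYSTM1 (0.984) and SEPSECS (0.983) came next. TLR3 stood at 0.964 with DDX58 and 0.95 with IFIH1, and its closest genes were TMEM116, TNFRSF21 and LINC00161, each at 0.996. MAVS ran the other way, at -0.90 with DDX58 and -0.946 with TLR3, and its closest genes were HMOX2 (0.98), MFN2 (0.979) and PPARA (0.978). MFN2 encodes a mitochondrial outer membrane fusion protein. DHX58 followed no other member, with r between -0.259 and 0.117, and its closest gene was RAPGEFL1 (0.931). EIF2AK2 was closest to IDE (0.959), TBK1 to OCRL (0.954), ADAR to MFF (0.948) and TICAM1 to CTDSP1 (0.911). These are descriptions of libraries that fall into groups by siRNA.

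The surrounding pathway was described by lists of other genes. Of 33 tested cofactors and inhibitors of RNA sensing, 7 rose and 16 fell with PXN siRNA under vehicle and 8 rose and 13 fell under DHT, with medians of -0.16 and -0.10. The higher calls were 21.2% and 24.2% of the list, near the 23.9% and 25% of all tested genes, and the lower calls 48.5% and 39.4%, against 26.3% and 26.7%. NLRC5, a regulator of MHC class I genes that also binds RIG-I, rose most clearly, by 2.67 ± 0.16 and 3.09 ± 0.16 (edgeR adjusted p = 6.19e-08 and 2.57e-08). DDX60L rose by 1.59 ± 0.13 and 1.20 ± 0.12, and its paralog DDX60, a helicase linked to RIG-I, by 1.46 ± 0.15 and 1.25 ± 0.15. DHX33 fell by 0.76 and 0.77. Of 26 genes that carry the signal from the adaptors to IRF3 and NF-kB, 7 rose and 6 fell under vehicle and 6 rose and 6 fell under DHT. These shares (26.9% and 23.1%, then 23.1% and 23.1%) were near those of all tested genes. Among them IRF7, the interferon-induced partner of IRF3, rose by 0.63 ± 0.10 and 0.61 ± 0.10, while TRAF3, a ubiquitin ligase downstream of MAVS and TRIF, fell by 0.45 and 0.48, and TOMM70A, a MAVS-binding import receptor of mitochondria, by 0.56 and 0.59. IRF3, the substrate of TBK1, was at 0.21 ± 0.09 under vehicle (edgeR adjusted p = 0.0487) and 0.18 ± 0.08 under DHT (adjusted p = 0.0964). Leaving out single libraries ended the call of IRF3 under vehicle in 11 of 12 cases, with fold changes of 0.12 (without replicate 1 of non-specific siRNA with vehicle, adjusted p = 0.269) to 0.21, and without replicate 2 of that group it was 0.30. Leaving out a DHT library, which is not in this contrast, also ended it, at 0.196 to 0.198, as did dropping the low-count filter (0.19). Those losses do not show that the call depended on a single library. Under DHT IRF3 was called with the replicate block (0.18, adjusted p = 0.0148), upper quartile scaling (0.28, adjusted p = 0.0157), a mean of at least 1 CPM (0.21, adjusted p = 0.044) and only the groups compared (0.18, adjusted p = 0.0414), within a range of 0.0148 to 1 over its 22 alternatives.

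Transcripts that the pathway switches on were described by a list of 17 interferon and cytokine genes and NFKBIA, the NF-kB inhibitor, which stood at 39.1 to 44.5 CPM in the group means and was not called. Of these 18 genes 15 were in the table and 6 passed the filter, of which 4 were called higher and none lower in either treatment (66.7% higher, against 23.9% and 25% of all tested genes). A gene that passed the filter only through the libraries where it is high had to differ, so this count supports nothing. CXCL10, an interferon-induced chemokine, had 8, 12 and 9 counts with non-specific siRNA and 57, 101 and 118 with PXN siRNA under vehicle (3.15 ± 0.42, edgeR adjusted p = 2.66e-05), and rose by 2.90 ± 0.41 under DHT. IL15 rose by 1.80 ± 0.22 and 1.91 ± 0.24 and CCL5 by 2.72 ± 0.43 and 2.58 ± 0.45. CXCL11 had 1 to 4 counts per library with non-specific siRNA and 21 to 51 with PXN siRNA, and so passed the filter only through the PXN siRNA libraries. IFNB1, the interferon made first by non-immune cells, was too low to be tested: it had 0 or 1 count in each non-specific siRNA library, 4, 6 and 12 counts with PXN siRNA and vehicle and 1, 5 and 15 with PXN siRNA and DHT. Replicate 3 gave most of the counts in both PXN siRNA groups, and replicate 1 with DHT was no higher than the non-specific siRNA libraries. RNA for the remaining interferons in the table, IFNL1, IFNL2 and IFNL3, was at 0 to 10 counts per library.

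In the arm of PKR, which acts on translation, 4 of 20 tested genes rose and 10 fell under vehicle, and 5 rose and 11 fell under DHT (medians -0.16 and -0.16). The higher calls were 20% and 25% of the list, near the share of all tested genes, and the lower calls 50% and 55%, against 26.3% and 26.7%. The target of PKR, EIF2S1 (eIF2 alpha), fell by 0.36 and 0.51, and EIF2S3, another subunit of eIF2, by 1.03 and 0.94. DDIT3, a stress-induced transcription factor, rose by 1.40 ± 0.12 and 1.48 ± 0.13, and PPP1R15A, which directs the phosphatase of eIF2 alpha, by 1.22 ± 0.13 and 1.38 ± 0.14. Other kinases and stresses act on the same genes. Of 3 tested necroptosis genes CFLAR rose in both treatments (0.54 ± 0.07 and 0.47 ± 0.07). MLKL, the executor of necroptosis, fell by 0.79 under vehicle (edgeR adjusted p = 0.0116), a call lost without replicate 1 of non-specific siRNA with vehicle (-0.66, adjusted p = 0.0529, with a range of 0.00712 to 0.371 over its 21 alternatives). RIPK3, the partner of ZBP1, gave at most 1 count in a library. Of 16 tested genes that edit or clear nucleic acids, beside ADAR, 2 rose and 7 fell under vehicle (12.5% and 43.8%, against 23.9% and 26.3% of all tested genes) and 2 rose and 5 fell under DHT (12.5% and 31.2%, against 25% and 26.7%). RNASEH2A, the catalytic subunit of ribonuclease H2, fell by 1.49 and 1.25. Of 14 tested genes of the RNA interference machinery, through which siRNA acts, 6 rose and 3 fell under vehicle (42.9% and 21.4%, against 23.9% and 26.3% of all tested genes) and 5 rose and 3 fell under DHT (35.7% and 21.4%, against 25% and 26.7%). DICER1 rose by 0.93 ± 0.08 and 0.76 ± 0.08 and AGO2 by 0.62 ± 0.08 and 0.49 ± 0.08, while DROSHA fell by 0.34 and 0.35 and SND1 by 0.45 and 0.60. Of 6 tested DNA sensing genes 2 were called higher and 2 lower under vehicle (33.3% each, against 23.9% and 26.3% of all tested genes). Under DHT 2 were higher and 3 lower (33.3% and 50%, against 25% and 26.7%). PQBP1 fell by 0.26 and 0.30, and MRE11A by 0.18 and 0.26, the vehicle call of MRE11A being lost without replicate 3 of PXN siRNA with vehicle (-0.15, adjusted p = 0.0629, with a range of 0.0106 to 1 over its 22 alternatives). IFI16, a DNA sensor, had 0 to 3 counts per library with non-specific siRNA and 25 to 41 with PXN siRNA, and so passed the filter only through the PXN siRNA libraries. Its place among the higher calls of this list therefore supports nothing.

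**Figure D4:**
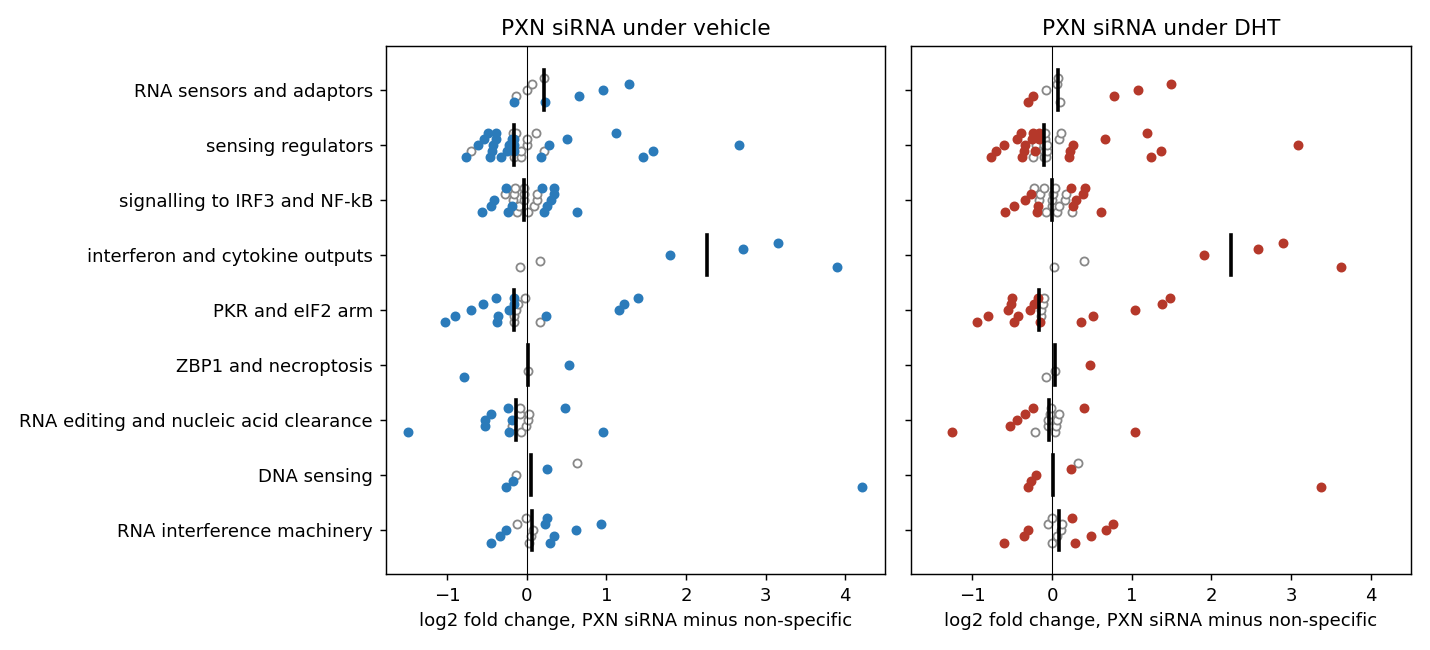
Log2 fold change for PXN siRNA against non-specific siRNA of every tested gene, by list, under vehicle (left) and DHT (right), filled where the adjusted p was under 0.05, with a bar at each list's median. The lists of regulators, signalling and eIF2 genes spread to both sides of 0, and the interferon and cytokine list shows only the 6 of its 15 genes that passed the filter, CXCL11 through the PXN siRNA libraries alone. IFI16 in the DNA sensing list also passed it only through those libraries.

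Of 6 tested markers of other cells 2 rose and 2 fell with PXN siRNA under vehicle and 2 rose and 3 fell under DHT. These were 33.3% each, then 33.3% and 50%, against 23.9% and 26.3%, then 25% and 26.7%, of all tested genes. The summed level of the 12 markers of other cell types was 42.8 to 51.8 CPM with non-specific siRNA and vehicle, 43.1 to 52.9 with non-specific siRNA and DHT, 58.9 to 61.4 with PXN siRNA and vehicle and 61.9 to 71.7 with PXN siRNA and DHT. COL1A1 made up 18.8 to 22.4 CPM of this with non-specific siRNA and 28.6 to 38.3 CPM with PXN siRNA, and VWF 12.8 to 18.9 and 14.7 to 22 CPM. COL1A1 rose by 0.57 ± 0.08 and 0.82 ± 0.09, whereas COL3A1 fell by 0.80 and 0.83. TAGLN was at 0.56 and 0.67, and LUM at -2.22 and -1.70. LUM had 5 to 29 counts per library with non-specific siRNA and 2 to 6 with PXN siRNA. It thus passed the filter only through the non-specific siRNA libraries, and its place among the lower calls supports nothing. Leaving out single libraries ended the call of TAGLN in 4 of 12 cases under vehicle and 1 under DHT. It ended that of LUM in 2 cases under DHT. The leukocyte markers PTPRC and LYZ stayed at or under 3 counts per library. The 8 luminal markers of LNCaP summed to 4175 to 4714 and 6601 to 6937 CPM with non-specific siRNA and to 2649 to 3085 and 3211 to 3704 CPM with PXN siRNA. The part of these shifts in the levels of the RNA sensors was not tested.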

How the data were processed

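Messenger RNA of 12 LNCaP libraries was sequenced after a stranded preparation, per the labels' protocols. What the authors deposited is 1 table of raw read counts by gene symbol. featureCounts, Trimmomatic 0.32, STAR 2.4.2a, Subread 1.5.0p3 and GRCh38 are named in the submitters' processing notes. Not given in the sources used here are the annotation, the strand setting and the handling of multiply mapped reads, so genes with antisense or near-identical partners are less certain.

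Groups came from the labels. Genes were kept by filterByExpr (18468 kept, 17669 left out), scaled by TMM and fitted with edgeR 4.0.16 (quasi-likelihood, 4 group means, 12 libraries, 8 residual degrees of freedom) in R 4.3.3. All tests were two-sided, with Benjamini-Hochberg adjustment over all tested genes and a threshold of 0.05. SE is the fold change divided by the square root of its F value, and 95% intervals use the fit's total degrees of freedom. CPM use TMM-scaled library sizes, and CPM per kb the union exon length in GENCODE 29. Gene positions are from that annotation too, whereas promoter starts are from RefSeq. Floors and counts cover counting error only. The fit was tested on simulated data. Replicates differed by more than sampling noise (chi-square per gene 6.03 to 26.6).

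Same-numbered libraries deviated together in the 4 pairwise contrasts (correlations 0.155 to 0.557, each over the limit of 0.1), so the numbers were taken to pair them there. The main fit had no block, because the labels do not say what the replicate number marks, and so ignores this pairing. A fit with the block was an alternative. The others were DESeq2 1.42.0, limma-voom (limma 3.58.1), 2 other scalings, 2 other filters, a threshold of 0.01, testing against a 1.5-fold change, a fit of only the groups compared, and leaving out each library in turn. The test against a 1.5-fold change could not call a gene with a smaller estimated difference. It gave the upper end of the adjusted p range for MAVS, TBK1 and MRE11A under vehicle.

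Members, gene lists (160 other genes in 10 lists, 138 tested) and tests were chosen with earlier results of these data known. Genes were named from all members, PXN, the up to 3 called genes of smallest p per list in each PXN siRNA contrast, and the genes most correlated with each member (5 for DDX58, up to 3 for the others) among those with a mean of at least 1 CPM. CCL5, DDX60, EIF2S1, IRF3, RIPK3 and the untested interferons were added for their roles after values were seen. Some genes that the rule names are not reported here.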

Additional observations from a re-analysis of the deposited data

How the results depend on the processing

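The calls of TLR3 and DDX58 for PXN siRNA held under all 22 alternatives in both treatments, with fold changes of 1.22 to 1.38 and 0.84 to 1.05 under vehicle and 1.35 to 1.67 and 0.94 to 1.19 under DHT. The members called under vehicle went from 5 to 3 at an adjusted p under 0.01 and to 2 against a fold change of 1.5, and those under DHT from 5 to 2 against that fold. Leaving out single libraries gave 4 to 5 under vehicle and 0 to 1 for DHT given after non-specific siRNA. The replicate block changed the member calls of no contrast but DHT with non-specific siRNA, where it called 3. Over all genes, PXN siRNA calls fell from 9276 to 1957 under vehicle and from 9561 to 2234 under DHT against a fold of 1.5. DHT with non-specific siRNA gave 900 genes, 2236 with the replicate block, 406 at 0.01, 79 against a fold of 1.5 and 416 to 1361 when leaving out single libraries. DHT with PXN siRNA gave 34 genes, 346 with the block, 188 without the filter, 145 by DESeq2, 18 with only the groups compared, 11 at 0.01, 10 against a fold of 1.5 and 10 to 80 when leaving out libraries. The interaction gave 0 genes, 58 with the block, 35 without the filter, 30 by DESeq2, 1 with DESeq2 size factors and 0 to 45 when leaving out libraries. The cause of these shifts was not tested, beyond the stricter rule or fewer samples of each setting.

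Among the named genes direction turned only for differences that were not called in the main fit. Most of these were near 0, but the interaction of DHX58 was -0.16 ± 0.32. TICAM1 under vehicle was -0.015 without the filter and -0.060 to 0.051 when leaving out single libraries, below 0 in 11 of 12 cases. These include the DHT libraries, which are not in this contrast (-0.0131 to -0.0111). Under DHT TICAM1 was 0.020 with upper quartile scaling. Leaving out single libraries gave DHX58 a range of -0.075 to 0.20 under DHT, of -0.056 to 0.23 for DHT with PXN siRNA and of -0.45 to 0.006 in the interaction. For TBK1 after DHT and non-specific siRNA the range was -0.023 to 0.085, and ADAR had one of -0.0088 to 0.026 in the interaction. MLKL under DHT was 0.031 with upper quartile scaling and -0.28 to 0.036 when leaving out single libraries. Depth limits ZBP1, whose counts lie under the floor of 3.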
